A study of Mus musculus with 2 samples.

Results

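In the embryonic mouse liver, 6 of 1973 listed miRNA genes were examined that are known from the myeloid and lymphoid cells of the blood, namely Mir142, Mir223, Mir155, Mir146 (also called Mir146a), Mir146b and Mir150. They were picked by name, through their Ensembl identifiers in the GENCODE annotation. The deposited tables list Mir142b, which lies antisense to Mir142, so Mir142 was read from the opposite-strand counts of the Mir142b entry, and the other 5 genes from sense counts. The samples were 2 replicate libraries of short RNA from whole embryonic liver at 12.5 days of development, strain B6NCrl, healthy, with males and females pooled. Replicate 1 was made from the livers of 120 embryos and replicate 2 from those of 88. Both carry 1 donor identifier in the labels, so the spread between them may in part be technical. There is a single group with no treatment or second tissue, and the values below are levels in this tissue and differences between its 2 libraries.

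A miRNA is a short RNA that guides an Argonaute protein to messenger RNAs, mainly by pairing through its seed, bases 2 to 8, and thereby lowers their output. At this stage the liver is a main site of blood formation, where stem cells, red cell precursors and early myeloid cells lie among hepatoblasts, while most mature lymphocytes are formed later and in other organs. Mir142 is active throughout the blood lineages. Mir223 is a miRNA of granulocytes and monocytes, and it restrains granulocyte output and activation. Mir150 is abundant in mature resting B and T cells, where it represses Myb. Mir155 is induced in activated lymphocytes and macrophages. Mir146 and Mir146b take part in a feedback on NF-kappaB signalling, in which miR-146a represses Traf6 and Irak1.

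The mature sequences show which of these miRNAs share a seed and why the strand of Mir142 matters. They are from RefSeq on GRCm38.p6, where 5 of the 6 genes had an entry for the arm that is usually the functional one, and miR-150-5p is named only. Each is written 5′ to 3′ with the seed in capitals, and for Mir142 both arms are shown along with the miRNA named on the other strand.
miR-142a-3p: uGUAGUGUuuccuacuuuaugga
miR-142a-5p: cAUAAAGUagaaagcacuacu
miR-142b: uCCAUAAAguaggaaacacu
miR-223-3p: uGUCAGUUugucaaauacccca
miR-155-5p: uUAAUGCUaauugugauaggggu
miR-146a-5p: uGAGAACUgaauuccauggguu
miR-146b-5p: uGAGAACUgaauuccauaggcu

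The 2 miR-146 sequences have the same seed and differ at 2 of 22 positions, G18A and U21C, counted from the 5′ end with the base of miR-146a-5p first. Among the 1738 mature sequences of the table, no other miRNA shared that seed, and none shared the seed of miR-142a-3p, miR-223-3p or miR-155-5p. The 20 bases of miR-142b are the reverse complement of a stretch of the 23-base miR-142a-3p, so the strand of a read decides which of the 2 genes it belongs to. The hairpins of Mir146 and Mir146b have a run of 21 bases in common, and a read that lay wholly within it could have been set aside as aligned to several places. The levels of both are therefore uncertain. The hairpins of Mir142, Mir223 and Mir155 shared at most 13 bases with any of the other 1004 hairpins. Mir150 had no hairpin among those compared, so it was not checked for shared bases, nor miR-150-5p for a shared seed. The count of Mir150 may therefore lack reads set aside as aligned to several places.

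The 6 genes lie at separate places in the genome and form no cluster. All coordinates are mm10, with gene models from GENCODE M21. On chromosome 11, Mir142 (ENSMUSG00000105196.1) occupies 87756864 to 87756927 of the plus strand, in an intron of the long noncoding RNA Mir142hg. Mir142b (ENSMUSG00000065420.2) spans 87756841 to 87756955 on the minus strand of the same place. Mir146 (ENSMUSG00000065601.1) is on chromosome 11 as well, at 43374397 to 43374461 on the minus strand, and overlaps no other annotated gene. On chromosome X, Mir223 (ENSMUSG00000076066.1) occupies 96242817 to 96242926 of the plus strand, within an exon of the noncoding RNA F630028O10Rik. Chromosome 16 carries Mir155 (ENSMUSG00000065397.1) at 84714140 to 84714204 of the plus strand, within an exon of its host transcript Mir155hg. Chromosome 7 carries Mir150 (ENSMUSG00000065495.1) at 45121757 to 45121821 of the plus strand, between genes. Chromosome 19 carries Mir146b (ENSMUSG00000070127.2) at 46342762 to 46342870 of the plus strand, in an intron of Mfsd13a.

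Levels are counts scaled to a total of 1000000 sense counts over all listed miRNA genes (CPM). The denominators were 3447858 counts in replicate 1 and 3534816 in replicate 2, out of 11057424 and 11013976 reads, and the counts of Mir142 stand outside them. For a gene without counts a fixed limit of 3 counts was used, which is 0.870 CPM in replicate 1 and 0.849 CPM in replicate 2. The 95% interval of a count of 0 reaches higher, to 1.07 CPM in replicate 1. Intervals are 95% Clopper-Pearson intervals. The counts carry no molecular identifiers, so intervals and limits cover counting error only. A read covers a whole mature miRNA, so counts were not scaled by length. A count is the sum over both arms of a hairpin, and the efficiency of capture is unknown for each miRNA, so ratios between genes are ratios of counts. In whole tissue, fewer cells of a type and less of a miRNA per cell cannot be told apart.

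The pan-blood miRNA was far above the myeloid one, and both were far above the miRNAs of lymphocytes and of the NF-kappaB feedback. Mir142 had 150867 counts in replicate 1 and 144755 in replicate 2, or 43757 CPM (43541 to 43973) and 40951 CPM (40745 to 41158). Its mean was 42354 ± 1984 CPM (SD, n = 2), and it ranked 5 of the listed genes in both libraries. The 2 libraries lay close together, though their counting intervals did not overlap. Mir335, the gene directly above Mir142 in the order of means, was at 50413 ± 3779 CPM, further away than the larger of the 2 SDs. Mir26b, directly below it at 39951 ± 2548 CPM, was within that spread, though Mir142 was above it in each library.

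Mir223, the myeloid miRNA, had 23889 counts in replicate 1 and 19737 in replicate 2. That is 6929 CPM (6841 to 7017) and 5584 CPM (5506 to 5662), with a mean of 6256 ± 951 CPM (SD, n = 2). It ranked 41 in replicate 1 and 45 in replicate 2, and replicate 1 was the higher library. Its neighbours in the order, Mir151 at 6690 ± 376 CPM and Mir30d at 5993 ± 124 CPM, did not differ from it beyond the spread. Mir142 exceeded Mir223 6.32-fold in replicate 1 (6.23 to 6.40) and 7.33-fold in replicate 2 (7.23 to 7.44).

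Mir155 and Mir150 were grouped as lymphocyte miRNAs, though Mir155 is also induced in macrophages. Of these, the one of activated cells stood above the one of resting cells, with the median tested gene at 53.2 CPM lying between them. Mir155 had 825 and 812 counts in replicates 1 and 2, which is 239 CPM (223 to 256) and 230 CPM (214 to 246), with a mean of 234 ± 6.76 CPM (SD, n = 2). Mir150 had 69 and 61 counts, which is 20.01 CPM (15.6 to 25.3) and 17.3 CPM (13.2 to 22.2), with a mean of 18.6 ± 1.95 CPM. For each gene the intervals of the 2 libraries overlapped. Mir155 exceeded Mir150 11.96-fold in replicate 1 (9.35 to 15.5) and 13.3-fold in replicate 2 (10.3 to 17.6). Mir223 exceeded Mir150 346-fold in replicate 1 (273 to 445) and 324-fold in replicate 2 (252 to 423), so the gap between the myeloid and the mature lymphocyte miRNA was of like size in the 2 libraries. Against Mir150, Mir142 was 2186-fold higher in replicate 1 (1728 to 2810) and 2373-fold higher in replicate 2 (1847 to 3102).

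Of the miRNAs of the NF-kappaB feedback, Mir146 carried nearly all counts. Mir146 had 704 counts in replicate 1 and 431 in replicate 2, or 204 CPM (189 to 220) and 122 CPM (111 to 134). Its mean was 163 ± 58.2 CPM (SD, n = 2). Replicate 1 was the higher library and the intervals did not overlap, though these intervals leave out any spread beyond counting error. Mir146b had 0 counts in replicate 1 and 7 in replicate 2, the 7 being 1.98 CPM (0.796 to 4.08). Mir146 was at least 235-fold higher than Mir146b in replicate 1, with the limit of 3 counts in that library put in for the 0, and 61.6-fold higher in replicate 2 (29.6 to 154). The 21 bases that the hairpins share were not resolved further.

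**Figure D1:**
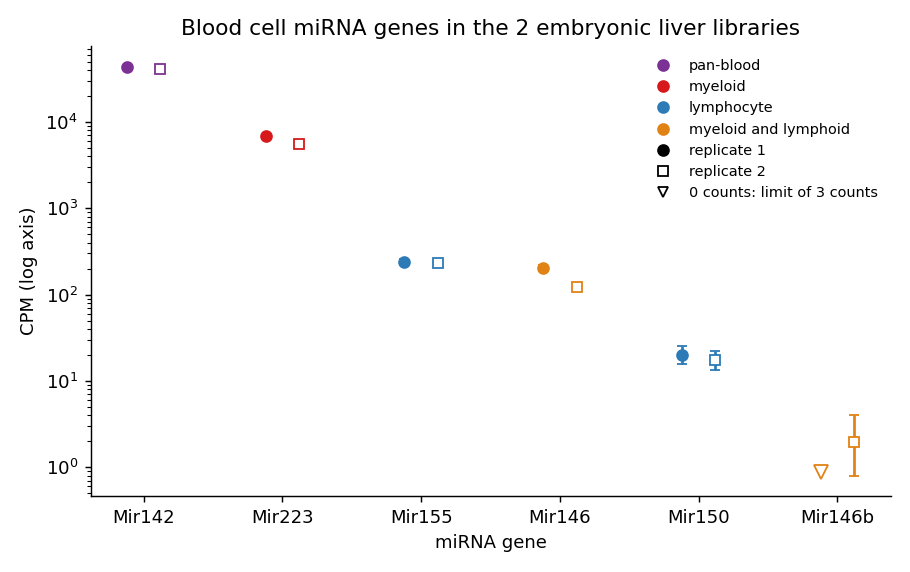
The plot shows CPM on a log axis for each gene in replicate 1 (filled circles) and replicate 2 (open squares), with 95% Clopper-Pearson intervals and colours for the 4 classes. The levels step down from Mir142 at 43757 and 40951 CPM to Mir150 at 20.01 and 17.3 CPM. The open triangle is the fixed limit of 0.870 CPM drawn for the 0 counts of Mir146b in replicate 1.

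The order of the 6 genes was the same in both libraries: Mir142, Mir223, Mir155, Mir146, Mir150, Mir146b. Each gap between neighbouring means exceeded the larger SD of the pair, but the gap between Mir155 and Mir146 did so narrowly, at 71.4 CPM against an SD of 58.2 CPM. The ratio of Mir155 to Mir146 was 1.17 in replicate 1 (1.06 to 1.30) and 1.88 in replicate 2 (1.67 to 2.12), so its size depended on the library. No test over the 2 libraries was made on the order.

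Set against the sense total, the 6 genes together came to 5.11% in replicate 1 and 4.69% in replicate 2, and to 4.43% on average when opposite-strand counts, those of Mir142 among them, were part of the total. Mir142 made up 85.5% and 87.3% of that sum. Of the counts on the other 5 genes, Mir223 held 93.7% in replicate 1 and 93.8% in replicate 2. Mir155 and Mir150, grouped as the lymphocyte genes, held 3.51% and 4.15% of them, and Mir146 with Mir146b 2.76% and 2.08%. Most of the lymphocyte share came from Mir155, with 825 of 894 counts in replicate 1 and 812 of 873 in replicate 2. The makeup of the set was thus nearly the same in both libraries, with the NF-kappaB feedback genes the most uneven.

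**Figure D2:**
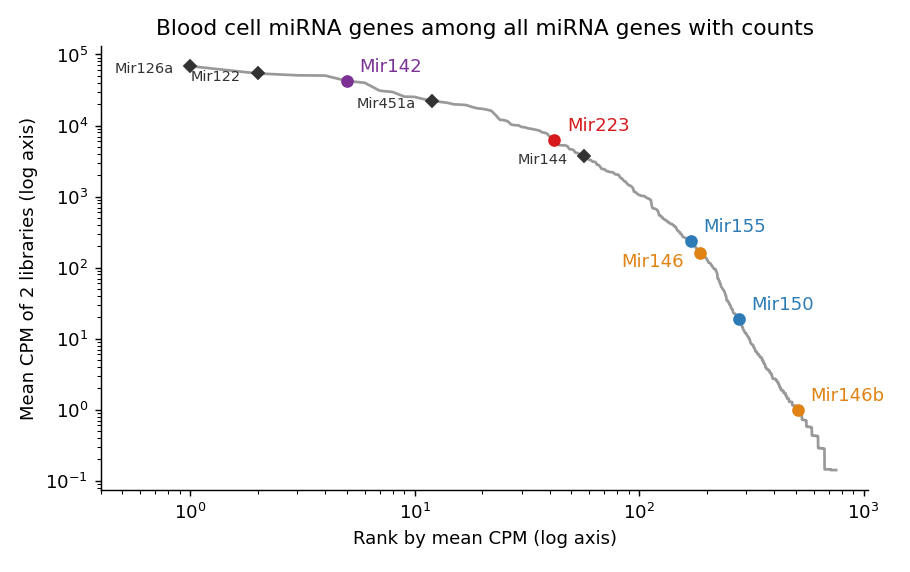
The grey line gives the mean CPM of every miRNA gene with counts against its rank, both on log axes, with Mir142 among these genes and other opposite-strand genes left out. The blood cell genes (coloured circles) spread from rank 5 for Mir142 to rank 510 for Mir146b, and the diamonds mark the endothelial Mir126a, the hepatocyte Mir122 and the erythroid Mir451a and Mir144.

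Set against markers of the other cell types of the organ, Mir142 was of the same order as the leading miRNAs. Mir122, the hepatocyte miRNA and the defining marker of the labelled organ, was at 54020 ± 9747 CPM (SD, n = 2). The ratio of Mir142 to Mir122 was 0.718 in replicate 1 (0.714 to 0.723) and 0.869 in replicate 2 (0.863 to 0.875), and its ratio to the endothelial Mir126a was 0.636 and 0.601. The erythroid Mir451a, which is needed for red cell maturation, differed most between the libraries of the 5 markers looked at, at 12422 CPM in replicate 1 and 32496 CPM in replicate 2. Mir142 therefore exceeded Mir451a 3.52-fold in replicate 1 (3.49 to 3.56) and 1.26-fold in replicate 2 (1.25 to 1.27). Its ratio to Mir144, which is made from the same transcript as Mir451a, was steadier, at 13.3 and 10.1. Mir223 was 2.10 times Mir144 in replicate 1 and 1.38 times in replicate 2, and 5.76 and 6.26 times the erythroid Mir486. Bases shared with other loci were not looked up for these 5 markers. Their counts may therefore lack reads set aside as aligned to several places. Mir150, at 18.6 CPM, was at the level of Mir208a, a heart miRNA at 19.1 ± 1.75 CPM, and of Mir184 at 18.6 ± 0.733 CPM, which are its neighbours in the order.

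The strand of the counts decided whether Mir142 was seen at all. Mir142b, the listed gene, had 0 sense counts in both libraries, and the whole of its counts lay on the other strand. Those counts made up 40.3% of all opposite-strand counts in replicate 1 and 39.8% in replicate 2, the highest of any entry. The other 5 genes had at most 2 opposite-strand counts each, namely Mir150 with 2 in replicate 1.

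Between the 2 libraries, 3 of the 5 genes tested differed beyond counting error, all 3 higher in replicate 1. The test was a two-sided exact binomial test on library sizes scaled by TMM, adjusted by Benjamini-Hochberg over 465 genes with at least 10 counts. It called 40.4% of all tested genes in either direction and 18.1% as higher in replicate 1. All 5 of these genes had at least 100 counts, and of the 290 genes at that depth 62.1% were called, so 3 of 5 is near the background. The split of all calls was 84 higher and 104 lower in replicate 1, and 102 higher and 77 lower with total counts as library sizes. The test compares 2 libraries and not conditions, and the log2 ratios below are replicate 1 over replicate 2.

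Mir146 had the largest difference of the set. Its log2 ratio was 0.68 (95% interval 0.51 to 0.86; adjusted p = 2.79e-14, exact binomial test), a larger difference in size than those of 276 of the 290 genes with at least 100 counts. Mir223 had a log2 ratio of 0.25 (0.22 to 0.28; adjusted p = 1.15e-71, exact binomial test) and was larger than 185 of them. Mir142 passed with a log2 ratio of 0.03 (0.02 to 0.05; adjusted p = 3.98e-10, exact binomial test), a difference of 1.02-fold that its high count made detectable. With a spread beyond counting error allowed for, by edgeR's exact test with the coefficient of variation set to 0.1, none of the 3 passed, and Mir146 came nearest (adjusted p = 0.0679, edgeR). That test called 2.58% of all genes, and the same test with the coefficient estimated from these libraries called 1.08%. The estimate takes the 2 libraries as replicates of 1 group, so the difference under test is part of its own error term.

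For the lymphocyte genes, no difference between the libraries was detectable at this depth. The log2 ratio of Mir155 was -0.002 (95% interval -0.14 to 0.14; adjusted p = 1, exact binomial test), and that of Mir150 was 0.15 (-0.37 to 0.67; adjusted p = 0.757, exact binomial test). The interval of Mir150 is wide because it rests on 130 counts. Mir146b, with 7 counts over both libraries, was below the minimum for testing.

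**Figure D3:**
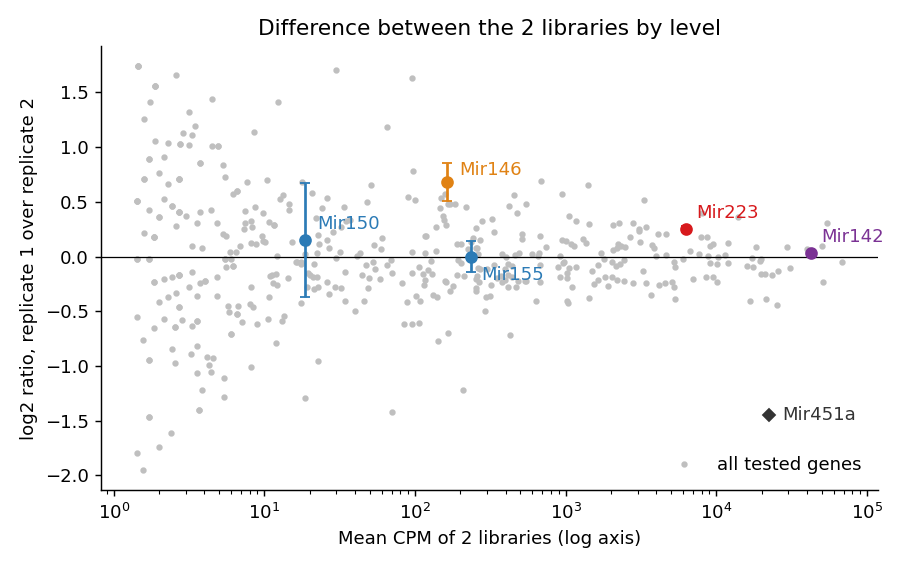
Each grey point is 1 of the 465 tested genes, by mean CPM (log axis) and log2 ratio of replicate 1 over replicate 2, and the coloured points are the 5 tested blood cell genes with their 95% intervals. Mir146 lies at 0.68, further from 0 than 276 of the 290 genes with at least 100 counts, while Mir142 and Mir155 lie near 0 and the erythroid Mir451a lies at -1.45.

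For each tested gene, the one with the nearest log2 ratio was looked up among the 20 genes nearest in level. With 2 libraries this is a likeness of level and of 1 ratio, not of a pattern over conditions. It named Mir26b for Mir142 (log2 ratios 0.03 for Mir142 and 0.07 for Mir26b) and Mir296 for Mir223 (0.25 for Mir223 and 0.20 for Mir296). For Mir155 it named Mir24-2 (-0.002 for Mir155 and 0.02 for Mir24-2), and for Mir150 it named Mir208a (0.15 for Mir150 and 0.13 for Mir208a). For Mir146 it named Mir200a, an epithelial miRNA (0.68 for Mir146 and 0.57 for Mir200a).

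Other miRNAs studied in blood cells covered a similarly wide range. A list of 25 was used, of which 24 were analysed here and 21 reached 10 CPM in both libraries. Mean levels ran from 6.61 CPM for Mir147 to 25499 CPM for Mir21a, with a median of 316 CPM. Mir21a at 25499 ± 893 CPM (SD, n = 2), Mir23a at 13971 ± 2875 CPM and Mir99b at 11456 ± 436 CPM were highest, and all 3 are also expressed in tissues other than blood. By mean, 4 of the 24 genes stood above Mir223, and 0 stood above Mir142. In replicate 2, Mir16-1 at 5648 CPM was also above Mir223 at 5584 CPM. Of the 21 with a hairpin in the RefSeq table, 9 share at least 20 bases with another locus, Mir23a and Mir16-1 among them, so their levels are uncertain. Mir15a, Mir99b and Mir125b-2 had no hairpin there and were not checked, so the 9 may be too few. In the exact binomial test, 3 of the 24 were called higher and 10 lower in replicate 1. The shares over all tested genes were 18.1% higher and 22.4% lower. When only genes with at least 100 counts were tested, 13 of 21 were called, 3 higher and 10 lower. Over all 290 genes at that depth 184 were called, 83 higher and 101 lower, so the number of calls is near the background. With total counts as library sizes the split of the 24 was 5 higher and 5 lower. In edgeR's exact test with the coefficient of variation set to 0.1, the lowest adjusted p among the 24 was 0.537. Their median log2 ratio was -0.09 beside -0.03 over all tested genes.

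Within that list, the miRNAs of macrophages and inflammation apart from Mir21a lay on either side of the median tested gene at 53.2 CPM. Mir132, which is induced by inflammatory signals, was above it at 143 CPM in replicate 1 and 132 CPM in replicate 2, and Mir212, from the same cluster, below it at 15.4 and 19.8 CPM. Mir511, in the gene of the macrophage mannose receptor, was at 16.2 and 14.1 CPM, and Mir147, induced by Toll-like receptor signals, at 8.12 and 5.09 CPM. By mean, Mir212, Mir511 and Mir147 lay below Mir150, and Mir132 lay below Mir146 and Mir155. The order depended on the library, as in replicate 2 Mir212 was above Mir150 at 17.3 CPM and Mir132 above Mir146 at 122 CPM. Mir196b, which is known from blood stem and progenitor cells, was at 1548 CPM in replicate 1 and 1717 CPM in replicate 2, between Mir223 and Mir155.

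**Figure D4:**
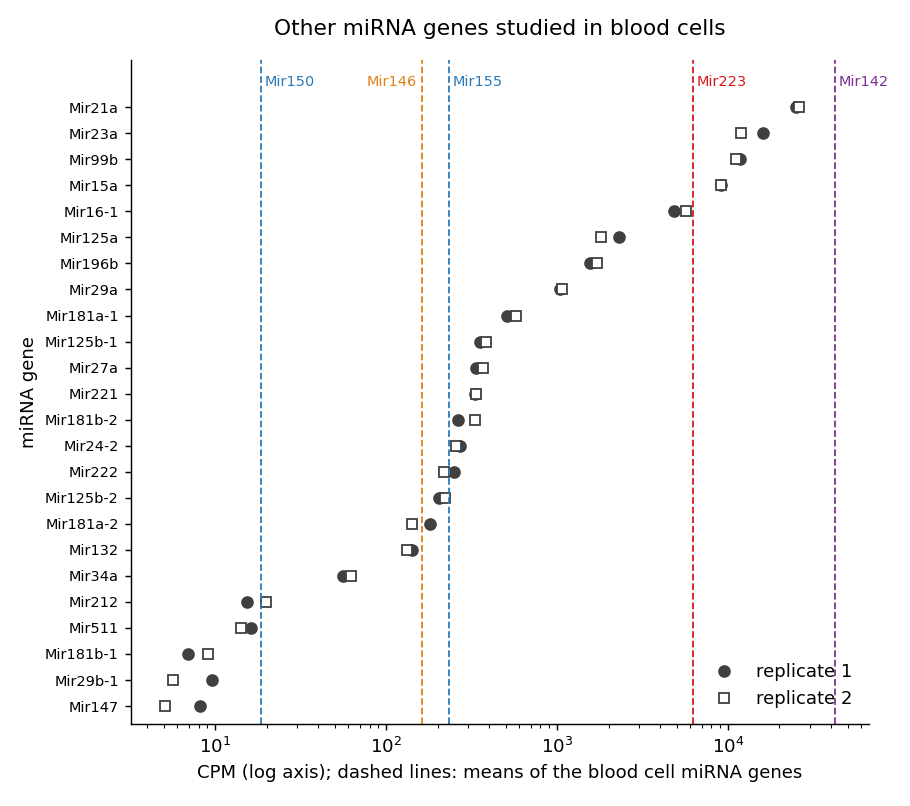
Points give the CPM (log axis) of 24 other miRNA genes studied in blood cells, in replicate 1 (filled circles) and replicate 2 (open squares), and dashed lines mark the mean levels of the 5 blood cell genes past 10 CPM in both libraries. Mir21a is highest at 24867 and 26131 CPM, below the line of Mir142 at 42354 CPM, and 5 genes lie below the line of Mir150 at 18.6 CPM by mean.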

How the data were processed

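For each library the authors deposited a table of raw counts, given for both strands, the sense strand and the opposite strand of each miRNA gene. Per the submitters' file lists, the assembly was mm10 and the annotation GENCODE M4, while aligner and counter are not given in these sources. Reads not assigned to a gene (unmapped, aligned to several places, on no feature or ambiguous) made up 68.8% and 67.9% of all reads in replicates 1 and 2 and were left out. Reads aligned to several places alone were 28.8% and 31.1% of all reads. Of 1973 identifiers, 1894 were found in GENCODE M21, a release for the same assembly.

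From these counts, CPM, ratios and exact intervals were computed with Python 3.11.15 and scipy 1.17.1, TMM factors and the negative binomial test with edgeR 4.0.16, and size factors with DESeq2 1.42.0. A log2 ratio has 0.5 counts added. edgeR's quasi-likelihood test cannot be fitted with 1 library a side. The binomial test was tested on simulated counts with counting error only, so that check does not cover a spread beyond it. Other denominators, scalings, count minimums, both strands and each library alone were tried as alternatives. Named were the 6 genes, their neighbours in level, the gene of nearest library ratio, shared-seed genes, markers of other cell types, and of the blood list the 3 highest; Mir196b and the macrophage miRNAs were added after their values were seen. The genes and lists were chosen with earlier results of these data known. The labels give both pools 1 donor identifier, and p-values between the libraries measure only counting error unless a coefficient of variation is named.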

Additional observations from a re-analysis of the deposited data

How the results depend on the processing

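With sense and opposite-strand counts together as the denominator, Mir142 stood at 38299 CPM and Mir155 at 212 CPM, and the shares were 3.83% for the pan-blood gene, 0.0229% for the lymphocyte genes and 4.43% for all 6. Scaled to 1000000 reads of the whole library, the values were 13393 for Mir142, 1976 for Mir223, 74.2 for Mir155, 51.4 for Mir146 and 5.89 for Mir150. The shares were then 1.34% (pan-blood), 0.198% (myeloid), 0.00801% (lymphocyte), 0.00517% (Mir146 and Mir146b) and 1.55% (all 6). These follow from the larger denominators, and the order of the genes does not depend on them. TMM-scaled sizes and counts of both strands moved no level or ratio by 1 SD.

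Leaving out each replicate gave 40951 to 43757 CPM for Mir142, 5584 to 6929 for Mir223, 230 to 239 for Mir155, 122 to 204 for Mir146, 17.3 to 20.01 for Mir150 and 0 to 1.98 for Mir146b. The shares ran from 4.10% to 4.38% (pan-blood), 0.558% to 0.693% (myeloid), 0.0247% to 0.0259% (lymphocyte), 0.0124% to 0.0204% (Mir146 and Mir146b) and 4.69% to 5.11% (all 6). The ratios, an alternative chosen after seeing the data, ran from 6.32 to 7.33 for Mir142 over Mir223, 24.3 to 29.0 for Mir223 over Mir155, 1.17 to 1.88 for Mir155 over Mir146 and 7.07 to 10.2 for Mir146 over Mir150.

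The count of genes that differed between the libraries was 188, and 176 to 184 with other scalings and count minimums. It fell to 12 with edgeR's exact test at a coefficient of variation set to 0.1, and to 5 at the estimated 0.162. Neither held a member of the set, and these tests allow for a spread beyond counting. The estimate of 0.162 comes from the same 2 libraries taken as replicates, so the fall to 5 is no independent check. The log2 ratio of Mir155 turned to 0.059 with total counts and to 0.023 with DESeq2 size factors, on the far side of 0 from -0.002, without passing the test in any setting. With no count minimum, Mir146b was called lower in replicate 1 (adjusted p = 0.0324, exact binomial test) on 0 and 7 counts. No paired analysis was possible because the labels give a single group. Depth limits Mir150 and Mir146b most.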
